A study of Mus musculus with 31 samples.

Results

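The cytochrome P450 genes were followed across the BXD recombinant inbred mouse strains. They were taken as all probes whose single gene name in the platform annotation starts with Cyp and a digit, leaving out Cyp4b1, Cyp51, Cyp11a1, Cyp11b1, Cyp11b2 and Cyp21a1. This gave 59 probes of 56 genes, of 16874 probes and 15096 genes with a single name and 23040 probes in all. The 56 symbols all matched RefSeq, which lists Cyp2d13 and Cyp4f41-ps as pseudogenes. Each gene had 1 probe except Cyp1a1, Cyp2b13 and Cyp4f15, whose 2 probes were averaged.

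The study compared 31 BXD strains with C57BL/6J, 1 of the 2 inbred parents of the panel. It held 7 strains numbered BXD33 to BXD42 (BXD33-42) and 24 numbered BXD1 to BXD32 (BXD1-32). The split is by strain number, and that BXD33-42 were bred later is background and not in the labels. Each strain was 1 array of total RNA pooled from 3 male mice of 8 weeks and labelled with Alexa Fluor 647, against RNA of male C57BL/6J mice of the same age labelled with Alexa Fluor 555, with spike-in transcripts added to the reference and no dye swap. The titles say kidney and the source and tissue fields say whole brain, so the labels do not settle the tissue. The labels name no engineered allele.

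Cytochrome P450 enzymes are haem proteins that insert an oxygen atom into their substrates, with electrons passed on by P450 reductase in the endoplasmic reticulum and by ferredoxin in mitochondria. Families 1 to 3 act mainly on drugs, toxins and steroids, and most of them are abundant in liver. The Cyp4a, Cyp4f, Cyp2c and Cyp2j enzymes oxidise arachidonic acid and other fatty acids, and in kidney their products act on vessels and on salt transport in the tubule. The remaining families make or break down bile acids, oxysterols, steroid hormones, retinoic acid and vitamin D, which the proximal tubule activates through Cyp27b1.

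The values are log2 ratios, most likely of strain over C57BL/6J. Their base and direction are not given in the sources used here, so a positive value is read as higher in the strain on the red over green convention of limma. The sorted values were the same in all 31 columns, with a median of 0.0127 and an SD of 0.602. Arrays correlated with each other at an r between -0.0926 and 0.808 (median 0.363), and a single principal component held 21.9% of the variance of the gene values. BXD15 and BXD38 stood apart from the other arrays. BXD15 gave the lowest value in 10 of the 56 P450 genes (17.9%, against 9.60% of all genes). BXD38 gave the highest value in 5 (8.93%, near the 7.05% of all genes) and the lowest in 1 (1.79%, against 7.98%). BXD11 and BXD28 each gave the lowest value in 5 (8.93%, against 1.77% and 2.33% of all genes). Differences from all genes were not tested. The layout of the array repeats every 480 spots, and where a spot sits in this repeat accounted for 36.7% of the variance between spots in mean ratio. P450 probes lay close together in it, 24 of 59 at positions 14 to 18 and 29 at positions 241 to 248, so the means, differences and correlations of P450 genes are also given after the mean of each position was subtracted on every array, where this changed a call or moved a called value by over 1.5 times. Absolute signals are unknown, and neither the levels of tissue markers nor P450 levels can be read from ratios. In these pooled tissues, fewer cells of a type and less RNA per cell cannot be told apart.

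The first comparison asked how P450 transcripts in the panel differed on average from C57BL/6J. Fatty acid hydroxylases of the Cyp4a subfamily, the coumarin hydroxylase Cyp2a5 and the epoxygenase Cyp2j5 had mean ratios near 0.4. Cyp1a2, Cyp2d40, Cyp2c39 and Cyp2c29 were about as far below 0. With position removed, Cyp4a10 and Cyp2c29 did not pass limma (adjusted p = 0.108 and 0.137). Over the 56 genes, 15 had a mean ratio above 0 and 13 a mean ratio below 0 that passed limma at an adjusted p under 0.05, and 28 did not pass. Of all genes tested, 55.8% passed, 26.5% above 0 and 29.3% below 0. At 50% the share of P450 genes was near this background and is no result about the family. The median mean ratio was 0.03 for P450 genes and -0.01 for all genes. With spot position removed, 14 were higher and 12 lower, against 29.6% and 25.1% of all genes (54.7% in all). Of the 15 higher genes 11 stayed so, and of the 13 lower genes 8 did.

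**Figure D1:**
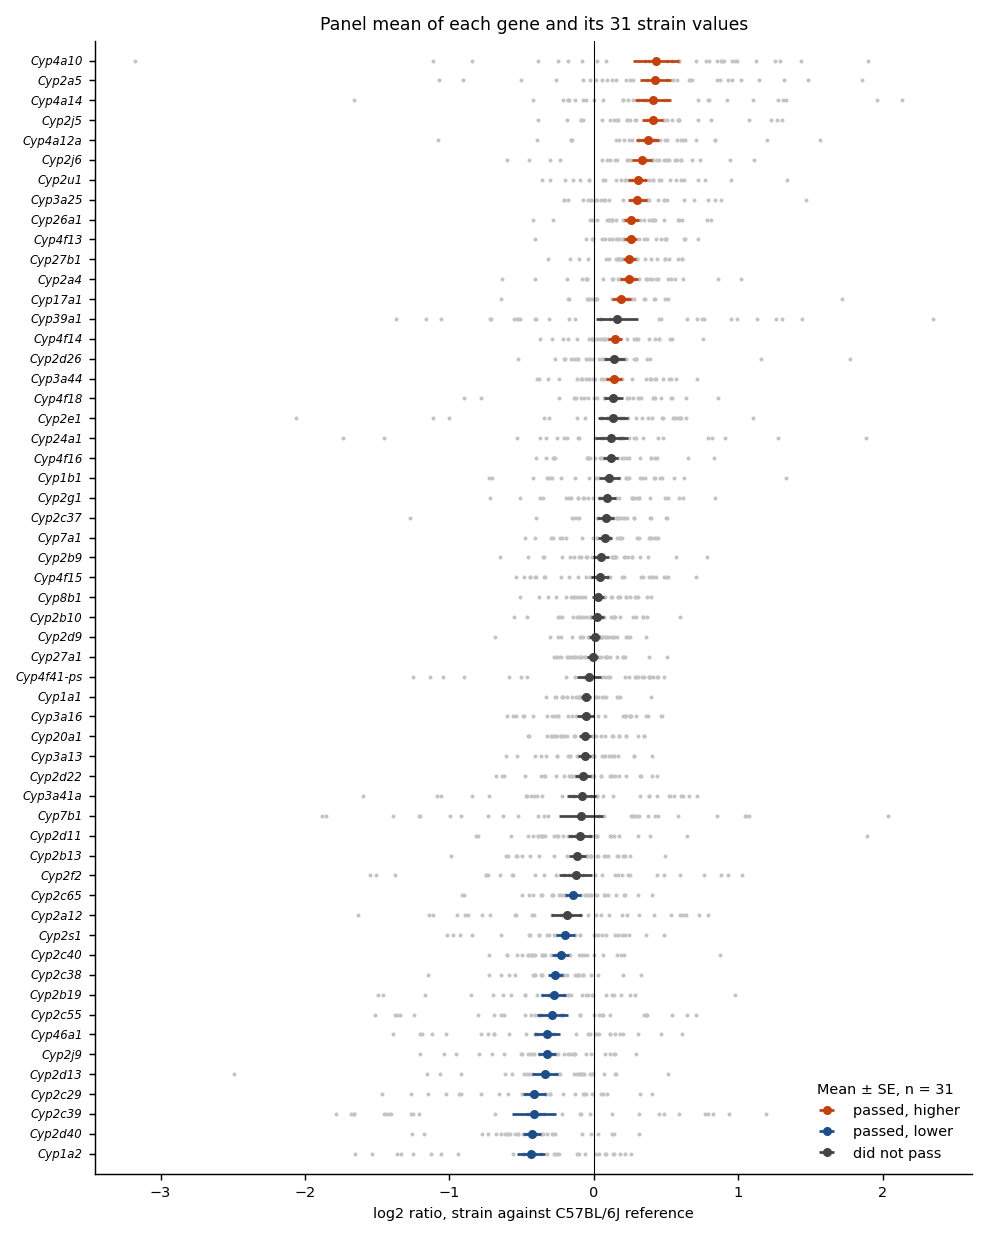
Log2 ratio of strain over C57BL/6J for the 56 P450 genes, in order of their mean, with the 31 strains as grey dots and the mean with a bar of 1 SE. Means that passed limma at an adjusted p under 0.05 are orange where higher and blue where lower; the 3 Cyp4a genes are among the highest and 6 of 7 Cyp2c genes are blue.

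Taken by family number, the 26 genes of families 1 to 3 outside Cyp2c and Cyp2j held 5 higher and 5 lower genes. That is 38.5% in all, against 55.8% of all genes, with a median mean ratio of -0.05. Not all of them encode enzymes of foreign compounds, as the called genes include Cyp2u1, Cyp2b19 and the pseudogene Cyp2d13. With position removed 7 were higher and 8 lower (57.7%, against 54.7% of all genes). The difference from all genes was not tested. Cyp1a2, a liver enzyme that oxidises caffeine and aromatic amines, ran from -1.65 in BXD40 over a median of -0.28 to 0.26 in BXD18. It lay below 0 in 22 of 31 strains, at a mean of -0.44 ± 0.0967 (SE, n = 31, adjusted p = 0.00028). That mean corresponds to 0.739 of the C57BL/6J level. Cyp1a1, which the aryl hydrocarbon receptor induces, had the smallest SD of the family at 0.153 and ran from -0.33 in BXD2 over -0.06 to 0.40 in BXD15. Its mean was -0.05 (adjusted p = 0.189), with position removed 0.09 (adjusted p = 0.0182). Its 2 probes had an r of 0.00642 over strains and SDs of 0.228 and 0.203, each above that of their average.

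Of the 3 Cyp2a genes, 2 were higher. Cyp2a5, the coumarin hydroxylase of mouse liver, ran from -1.07 in BXD15 over a median of 0.44 to 1.86 in BXD14. It was above 0 in 25 strains, with a mean of 0.43 ± 0.110 (adjusted p = 0.00133). Cyp2a4, a steroid hydroxylase nearly identical to Cyp2a5, ran from -0.63 in BXD15 over 0.27 to 1.02 in BXD22 and averaged 0.24 ± 0.0602 (adjusted p = 0.000896), with position removed 0.15 (adjusted p = 0.02). Cyp2a12, a testosterone hydroxylase, ran the other way, from -1.63 in BXD11 over -0.16 to 0.79 in BXD33. At -0.19 ± 0.107 it did not pass (adjusted p = 0.137), but with position removed it did (-0.31, adjusted p = 5.87e-05).

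The promoters of Cyp2a4 and Cyp2a5 are shown with those of Cyp2a12 and its neighbour Cyp2f2. The first pair is nearly the same in sequence and had an r of 0.178 over strains (0.313 with position removed). The second pair differs in sequence and had an r of 0.843 (0.535), and both its probes are spotted at position 16. Why the pairs differ in r was not tested. Each sequence is from RefSeq on GRCm38.p6, 250 bases before to 50 after the gene start, all on the plus strand of chromosome 7. Capitals mark, on either strand, the core promoter box spelled TATAAA. They also mark the nuclear receptor site spelled AGGTCA and the hepatocyte nuclear factor site spelled GTTAAT. The regions are chr7:26306942-26307241 for Cyp2a4, chr7:26835089-26835388 for Cyp2a5, chr7:27028840-27029139 for Cyp2a12 and chr7:27119705-27120004 for Cyp2f2.
Cyp2a4: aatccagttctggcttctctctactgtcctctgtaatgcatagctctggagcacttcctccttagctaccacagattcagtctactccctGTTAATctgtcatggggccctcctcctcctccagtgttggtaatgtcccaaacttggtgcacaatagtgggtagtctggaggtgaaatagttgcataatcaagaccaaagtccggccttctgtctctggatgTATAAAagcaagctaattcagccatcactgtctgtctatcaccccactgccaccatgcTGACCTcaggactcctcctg
Cyp2a5: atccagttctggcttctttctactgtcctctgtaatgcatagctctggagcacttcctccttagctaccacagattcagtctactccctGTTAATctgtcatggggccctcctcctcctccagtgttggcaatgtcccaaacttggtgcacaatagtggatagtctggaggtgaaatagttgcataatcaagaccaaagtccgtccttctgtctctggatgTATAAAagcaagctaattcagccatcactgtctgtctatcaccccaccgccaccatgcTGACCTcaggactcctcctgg
Cyp2a12: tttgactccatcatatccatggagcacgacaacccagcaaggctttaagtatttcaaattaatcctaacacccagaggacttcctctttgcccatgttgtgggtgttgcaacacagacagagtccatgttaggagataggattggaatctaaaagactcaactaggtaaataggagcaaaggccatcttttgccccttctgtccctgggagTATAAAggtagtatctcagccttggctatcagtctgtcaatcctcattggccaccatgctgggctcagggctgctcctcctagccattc
Cyp2f2: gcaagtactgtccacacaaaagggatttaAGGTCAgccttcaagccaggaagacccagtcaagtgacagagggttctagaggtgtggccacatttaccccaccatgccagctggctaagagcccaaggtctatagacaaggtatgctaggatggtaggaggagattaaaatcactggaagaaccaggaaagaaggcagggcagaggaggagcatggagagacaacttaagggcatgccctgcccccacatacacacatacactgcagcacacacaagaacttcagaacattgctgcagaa
Cyp2a4 and Cyp2a5 matched at 97.7% of aligned bases. Both hold TATAAA, at -28 and -29 from the start, GTTAAT at -160 and -161, and AGGTCA on the reverse strand at 30 and 29. Cyp2a12 holds TATAAA at -39 and Cyp2f2 holds AGGTCA at -221, and these 2 promoters matched at 50.3%. Among all 32851 promoters of this length, TATAAA or its reverse complement occurred in 13.6%, AGGTCA in 16.3%, GTTAAT in 7.10% and GCGTG, the core of the xenobiotic response element, in 32.4%. Of the 43 P450 promoters in the table, 21 held TATAAA, 12 AGGTCA, 4 GTTAAT and 8 GCGTG, the last including Cyp1a1 and Cyp1b1. A match describes the letters in this window only.

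The other genes of the chromosome 7 cluster were mostly near 0. Cyp2f2, which oxidises naphthalene in the club cells of mouse lung, ran from -1.55 in BXD11 over -0.07 to 1.03 in BXD33. Its mean was -0.12 ± 0.114 (adjusted p = 0.368), with position removed -0.25 (adjusted p = 0.00347). Cyp2b10, the classic target of phenobarbital and the receptor CAR, ran from -0.55 in BXD23 to 0.60 in BXD9 with a mean of 0.02 (adjusted p = 0.68). Its relatives Cyp2b9 and Cyp2b13 are more abundant in liver of female than of male mice and also stayed close to 0. Cyp2b9 ran from -0.65 in BXD22 over 0.05 to 0.78 in BXD38, and Cyp2b13 from -0.99 in BXD22 over -0.04 to 0.49 in BXD15. Neither passed (adjusted p = 0.425 and 0.0947), though Cyp2b13 was lower without BXD15 and BXD38 (-0.14, adjusted p = 0.0437). Cyp2b19, an epoxygenase of skin keratinocytes, ran from -1.50 in BXD23 over -0.21 to 0.98 in BXD12 and was lower at -0.28 ± 0.0873 (adjusted p = 0.00727), below 0 in 24 strains. Cyp2s1, an epithelial P450, ran from -1.02 in BXD1 over -0.18 to 0.48 in BXD22 and was lower at -0.20 ± 0.0686 (adjusted p = 0.0152), a call that ended with position removed (-0.13, adjusted p = 0.0749). Cyp2g1, a P450 of the olfactory mucosa, ran from -0.72 in BXD5 over 0.08 to 0.84 in BXD9 and did not pass (adjusted p = 0.196).

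Of the 6 Cyp2d genes on chromosome 15, 2 were lower. Cyp2d40 ran from -1.26 in BXD12 over -0.45 to 0.31 in BXD15, and 27 of 31 strains lay below 0. Its mean of -0.43 ± 0.0613 had the smallest adjusted p of the family (5.27e-07). The pseudogene Cyp2d13 ran from -2.49 in BXD22 over -0.24 to 0.51 in BXD9 and averaged -0.34 ± 0.0915 (adjusted p = 0.0021), with position removed -0.21 (adjusted p = 0.0471). The other 4 did not pass. Cyp2d11 ran from -0.82 in BXD39 over -0.18 to 1.89 in BXD6, and Cyp2d26 from -0.52 in BXD16 over 0.09 to 1.77 in BXD6, so the same strain gave the highest value of both. Cyp2d9, a testosterone hydroxylase that is higher in liver of male mice, ran from -0.69 in BXD14 over 0.04 to 0.36 in BXD8, and Cyp2d22 from -0.68 in BXD15 over -0.04 to 0.44 in BXD24. With position removed Cyp2d26 was higher (0.27, adjusted p = 0.00252) and Cyp2d9 lower (-0.15, adjusted p = 0.00441).

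The Cyp3a genes, whose enzymes take part in drug and steroid metabolism, numbered 5, of which 2 were higher. Cyp3a25 ran from -0.21 in BXD11 over 0.28 to 1.47 in BXD22 and averaged 0.30 ± 0.0665 (adjusted p = 0.000244). Cyp3a44 ran from -0.39 in BXD28 over 0.10 to 0.72 in BXD32 and averaged 0.14 ± 0.0534 (adjusted p = 0.0255), with position removed 0.23 (adjusted p = 0.000243). Cyp3a16, Cyp3a41a and Cyp3a44 are near copies of each other, so a probe of any of them could also read the others. This was not tested, as probe sequences were not used here. Cyp3a16 ran from -0.60 in BXD19 over -0.07 to 0.47 in BXD29, and Cyp3a41a from -1.59 in BXD2 over -0.02 to 0.71 in BXD23. Both straddled 0 and did not pass (adjusted p = 0.438 and 0.502). Cyp3a13, an intestinal member that lies outside the cluster, had a mean of -0.06 (adjusted p = 0.252), with position removed -0.15 (adjusted p = 0.0116).

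The promoters of the 3 near copies are shown because these genes varied together over strains. They lie on the minus strand of chromosome 5 at chr5:145469674-145469973 (Cyp3a16), chr5:145720087-145720386 (Cyp3a41a) and chr5:145805825-145806124 (Cyp3a44), on GRCm38.p6, with capitals as above.
Cyp3a16: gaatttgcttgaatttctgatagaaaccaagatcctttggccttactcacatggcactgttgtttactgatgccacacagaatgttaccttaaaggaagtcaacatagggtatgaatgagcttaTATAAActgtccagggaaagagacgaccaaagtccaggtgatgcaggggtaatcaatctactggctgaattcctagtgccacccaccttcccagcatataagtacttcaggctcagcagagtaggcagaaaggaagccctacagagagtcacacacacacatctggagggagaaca
Cyp3a41a: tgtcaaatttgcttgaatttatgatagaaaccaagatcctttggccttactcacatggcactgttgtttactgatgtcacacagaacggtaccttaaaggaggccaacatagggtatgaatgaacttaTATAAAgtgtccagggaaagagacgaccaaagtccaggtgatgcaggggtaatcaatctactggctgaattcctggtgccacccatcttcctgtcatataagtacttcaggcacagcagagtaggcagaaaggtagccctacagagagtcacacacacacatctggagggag
Cyp3a44: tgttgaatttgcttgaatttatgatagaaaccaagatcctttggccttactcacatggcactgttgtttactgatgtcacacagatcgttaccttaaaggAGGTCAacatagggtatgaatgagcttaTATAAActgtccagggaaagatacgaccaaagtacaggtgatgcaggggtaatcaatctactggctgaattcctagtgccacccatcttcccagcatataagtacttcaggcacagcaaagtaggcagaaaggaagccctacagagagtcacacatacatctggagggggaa
The 3 promoters matched pairwise at 92.4% to 93.4% of aligned bases. TATAAA stands at -126 in Cyp3a16 and at -122 in the other two, and of the 3 only Cyp3a44 holds AGGTCA, at -150.

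Cyp2e1, the ethanol-oxidising P450, ran from -2.06 in BXD15 over 0.21 to 1.10 in BXD34, above 0 in 24 strains, and its mean of 0.13 ± 0.104 did not pass (adjusted p = 0.289). Without BXD15 and BXD38 it was higher at 0.25 (adjusted p = 0.00478). Cyp2u1, a fatty acid hydroxylase counted with family 2, ran from -0.36 in BXD11 over 0.31 to 1.34 in BXD24 and was higher at 0.31 ± 0.0655 (adjusted p = 0.000184). Cyp1b1, which hydroxylates oestrogens outside the liver, ran from -0.73 in BXD15 over 0.11 to 1.33 in BXD33 and did not pass (adjusted p = 0.209).

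Of the 19 genes of the fatty acid and eicosanoid group, 7 were higher and 7 lower (36.8% each, against 26.5% and 29.3% of all genes), with a median mean ratio of 0.08. With position removed 6 were higher and 3 lower, so the share called went from 73.7% to 47.4%. Of all genes 55.8% were called before removal and 54.7% after it. The difference from all genes was not tested. All 3 Cyp4a genes were higher, 2 of them also with position removed. None of the 7 Cyp2c genes was higher and 6 were lower, 2 of them also with position removed. Of the 3 Cyp2j genes 2 were higher and 1 lower under both treatments.

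Cyp4a10 and Cyp4a14 are targets of the fatty acid receptor PPARα, and Cyp4a12a is the main arachidonic acid hydroxylase of male mouse kidney. Cyp4a10 ran from -3.18 in BXD15 over 0.59 to 1.90 in BXD34, with an SD of 0.935 that was the largest of the family. The next lowest strain, BXD8, was at -1.11, so BXD15 lay far below the rest. The mean was 0.43 ± 0.157 (adjusted p = 0.0198), 1.35-fold over C57BL/6J and above 0 in 24 strains, and it did not pass with position removed (0.27, adjusted p = 0.108). Cyp4a14 ran from -1.66 in BXD8 over 0.31 to 2.14 in BXD34 and averaged 0.41 ± 0.126 (adjusted p = 0.00617). BXD34 was thus highest in both. Cyp4a12a was above 0 in 26 strains, from -1.08 in BXD15 over 0.41 to 1.57 in BXD36, at a mean of 0.37 ± 0.0814 (adjusted p = 0.000224), with position removed 0.25 (adjusted p = 0.0317).

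Among the Cyp2j epoxygenases, Cyp2j5, which is abundant in the mouse proximal tubule, ran from -0.39 in BXD38 over 0.37 to 1.30 in BXD5. It was above 0 in 26 strains at a mean of 0.41 ± 0.0738 (adjusted p = 1.88e-05), 1.33-fold over C57BL/6J. Cyp2j6 ran from -0.60 in BXD9 over 0.41 to 1.11 in BXD28 and was higher at 0.33 ± 0.0662 (adjusted p = 6.76e-05), with position removed at 0.18 (adjusted p = 0.00934). Cyp2j9, an epoxygenase first found in mouse brain, lay on the other side, from -1.20 in BXD19 over -0.28 to 0.30 in BXD36, at -0.33 ± 0.0634 (adjusted p = 5.35e-05). It was below 0 in 26 strains.

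Cyp2c29, Cyp2c37, Cyp2c38, Cyp2c39 and Cyp2c40 oxidise arachidonic acid, and Cyp2c39 also retinoic acid. Cyp2c39 ran from -1.79 in BXD13 over -0.37 to 1.19 in BXD38 and was lower at -0.41 ± 0.155 (adjusted p = 0.023). Its SD of 0.921 was the second largest of the family. Cyp2c29 was below 0 in 26 strains, from -1.46 in BXD15 over -0.40 to 0.41 in BXD39, at -0.41 ± 0.0786 (adjusted p = 4.33e-05), but did not pass with position removed (-0.12, adjusted p = 0.137). Cyp2c38 was below 0 in 28 strains, from -1.15 in BXD6 over -0.23 to 0.33 in BXD38, and Cyp2c40 in 26, from -0.72 in BXD28 over -0.30 to 0.87 in BXD18. Their means of -0.27 (adjusted p = 5.76e-05) and -0.23 (adjusted p = 0.001) did not pass with position removed (-0.12 and -0.10, adjusted p = 0.0738 and 0.114). Cyp2c55, a P450 of the colon, ran from -1.51 in BXD28 over -0.22 to 0.71 in BXD38 and was lower at -0.29 ± 0.106 (adjusted p = 0.0209). With position removed its mean was 0.00 (adjusted p = 0.963). Cyp2c65, from -0.91 in BXD23 over -0.09 to 0.40 in BXD9, was lower with and without position (-0.15, adjusted p = 0.0242 without removal). Cyp2c37 was the exception, above 0 in 25 strains and from -1.27 in BXD34 over 0.12 to 0.51 in BXD29, and did not pass (adjusted p = 0.219).

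Of the 6 Cyp4f genes, several of which inactivate leukotriene B4, 2 were higher and none lower. Cyp4f13 was above 0 in 27 strains, from -0.41 in BXD6 over 0.24 to 0.72 in BXD24, at 0.26 ± 0.0447 (adjusted p = 1.18e-05). Cyp4f14 ran from -0.37 in BXD13 over 0.08 to 0.76 in BXD8 and averaged 0.14 ± 0.0490 (adjusted p = 0.0123), and with position removed 0.06 (adjusted p = 0.315). The remaining 4 did not pass. Cyp4f16 ran from -0.40 in BXD36 over 0.11 to 0.83 in BXD31 (adjusted p = 0.0507), and with position removed it was higher (0.18, adjusted p = 0.00384). Cyp4f15 ran from -0.54 in BXD22 over 0.05 to 0.71 in BXD6, and its 2 probes opposed each other over strains (r = -0.370). The pseudogene Cyp4f41-ps ran from -1.25 in BXD20 over 0.10 to 0.48 in BXD18. Cyp4f18, the leukotriene hydroxylase of neutrophils, which lies apart on chromosome 8, had a mean of 0.14 ± 0.0650 (adjusted p = 0.0745). Without BXD15 and BXD38 both Cyp4f18 (0.18, adjusted p = 0.0114) and Cyp4f16 (0.13, adjusted p = 0.0305) were higher.

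Among the sterol enzymes 1 of 6 passed. Cyp46a1, the brain cholesterol hydroxylase, ran from -1.39 in BXD31 over -0.30 to 0.61 in BXD13 and was lower at -0.32 ± 0.0897 (adjusted p = 0.00288). Cyp7b1 and Cyp39a1, which hydroxylate oxysterols, had no mean that passed. Cyp7b1 ran from -1.88 in BXD15 over 0.07 to 2.04 in BXD29, with an SD of 0.905 and an adjusted p of 0.644. Cyp39a1 ran from -1.37 in BXD11 over 0.05 to 2.35 in BXD38, with an SD of 0.871 and an adjusted p of 0.355. Its probe had an r of 0.835 with the other spots at its position 64, whose median pairwise r of 0.680 was above that of 99.6% of positions. With position removed the SD of Cyp39a1 was 0.483, and that of Cyp7b1 0.851. On the deposited ratios, strains lay on both sides of C57BL/6J, 17 above and 14 below for each of these 2 genes. Cyp7a1, the rate-limiting enzyme of bile acid synthesis, averaged 0.08 (adjusted p = 0.182), Cyp8b1, which makes cholic acid, 0.03 (adjusted p = 0.592), and the mitochondrial sterol hydroxylase Cyp27a1 -0.01, from -0.28 in BXD27 over -0.05 to 0.51 in BXD8 (adjusted p = 0.892).

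Of the vitamin D pair, Cyp27b1, which activates the hormone, was above 0 in 27 strains, from -0.31 in BXD6 over 0.25 to 0.61 in BXD19. Its mean was 0.25 ± 0.0429 (adjusted p = 1.12e-05), and 0.09 with position removed (adjusted p = 0.0656). Cyp24a1, which inactivates vitamin D, varied more, from -1.74 in BXD18 over 0.14 to 1.89 in BXD16, and did not pass (0.12 ± 0.115, adjusted p = 0.38). Its SD was 0.674, against 0.218 for Cyp27b1. Cyp26a1, which degrades retinoic acid, was above 0 in 27 strains, from -0.42 in BXD28 over 0.23 to 0.81 in BXD21, at 0.26 ± 0.0507 (adjusted p = 5.15e-05), with position removed 0.17 (adjusted p = 0.00191). Cyp17a1, an enzyme of androgen synthesis, averaged 0.19 ± 0.0649 (adjusted p = 0.0126) and 0.04 with position removed (adjusted p = 0.639), and Cyp20a1, an orphan P450, -0.06 (adjusted p = 0.253).

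**Figure D2:**
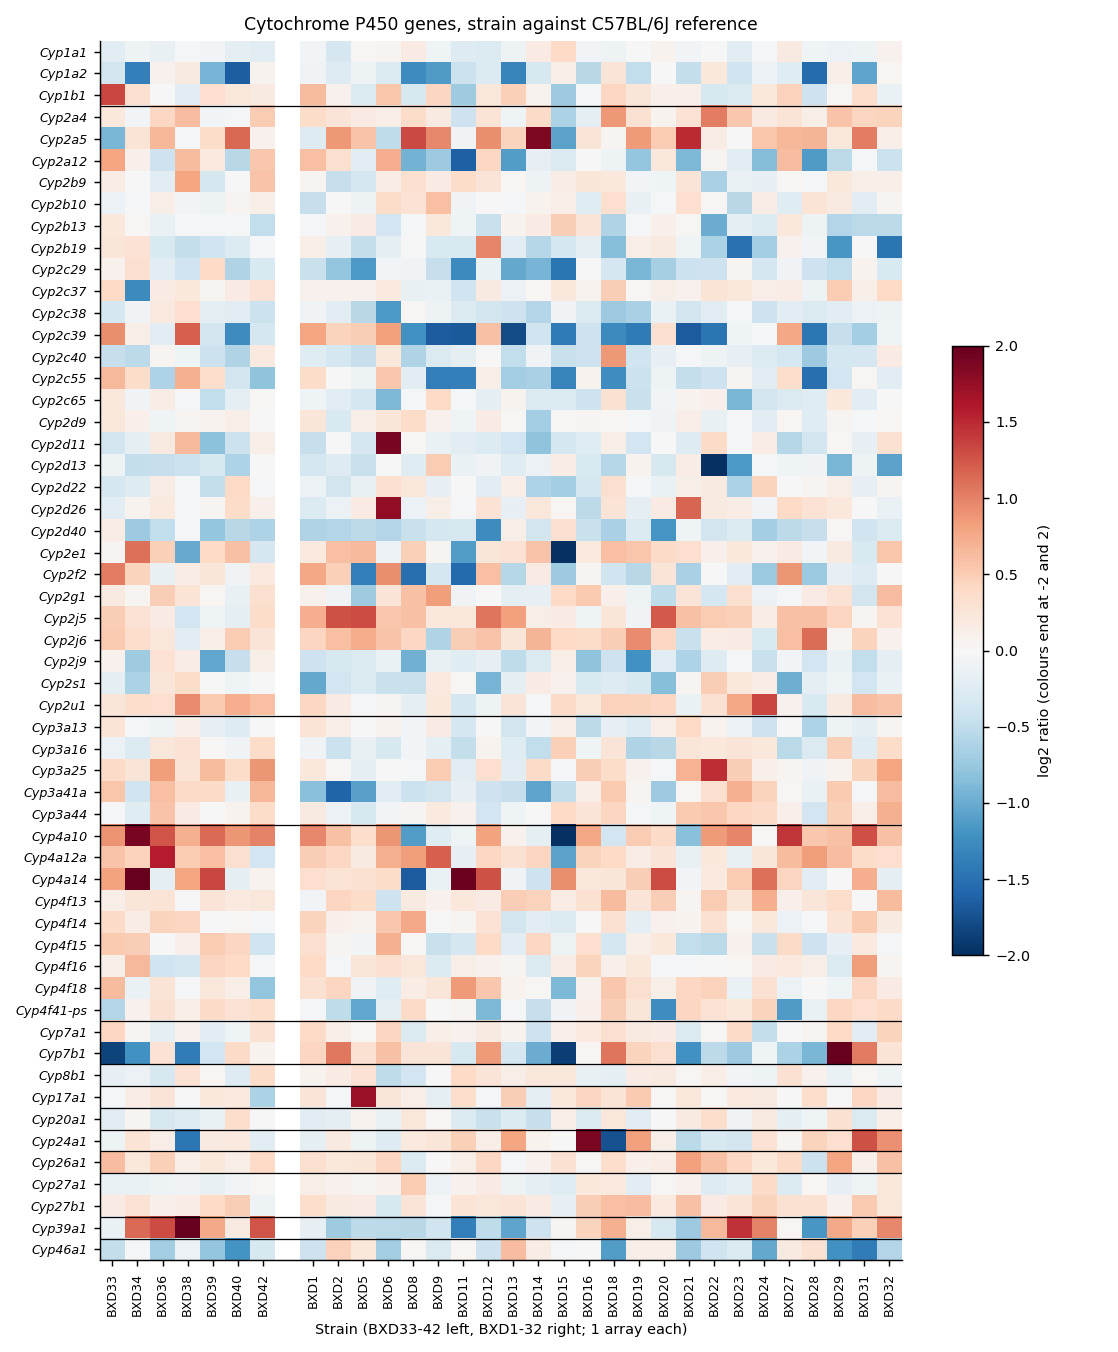
Log2 ratio of strain over C57BL/6J for each P450 gene (rows, in families) in each of the 31 strains (columns), with BXD33-42 at the left and BXD1-32 at the right, red for ratios above 0 and blue for those below. Rows with dark cells of both colours, such as those of Cyp7b1, Cyp39a1, Cyp2c39 and Cyp4a10, contrast with pale rows such as Cyp1a1, and the BXD15 column holds the lowest value of 10 genes.

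The spread over strains was as wide for P450 genes as for genes at large, with a median SD of 0.365 against 0.358 for all genes, and 29 of 56 above the median of all genes. The widest on the deposited ratios were Cyp4a10, Cyp2c39, Cyp7b1, Cyp39a1, Cyp4a14 (0.742) and Cyp24a1. With position removed the order was Cyp4a10 (0.866), Cyp7b1 (0.851), Cyp4a14 (0.719), Cyp24a1 (0.641), Cyp2a5 (0.607) and Cyp2e1 (0.583). Cyp2c39 was then at 0.564 and Cyp39a1 at 0.483, at ranks 8 and 14.

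The second question was whether P450 genes that lie together on a chromosome vary together over strains. P450 genes within 1 Mb of the next formed 8 clusters with 104 pairs, each tested by permutation of strains (100000 resamples, 2-sided). At a Benjamini-Hochberg adjusted p under 0.05, 11 pairs passed, 9 of them positive and 2 negative. The median r was 0.0681 in clusters and 0.0198 over the 1436 other pairs of P450 genes, and |r| was over 0.5 in 10.6% and 4.04%. The 6 pairs of the chromosome 5 cluster of Cyp3a16, Cyp3a41a, Cyp3a44 and Cyp3a25 all passed, whereas no pair passed in the Cyp2d, Cyp4f, Cyp2j, Cyp4a or Cyp1a clusters. With the probe of largest spread per gene in place of the average, 12 pairs passed. Cyp4f16 with Cyp4f15 was then among them (r = 0.487, adjusted p = 0.04585). The Cyp4f15 probe used there is spotted at position 16 and had an r of 0.725 with the other spots at that position. With position removed 5 pairs passed, all among the 11.

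**Figure D3:**
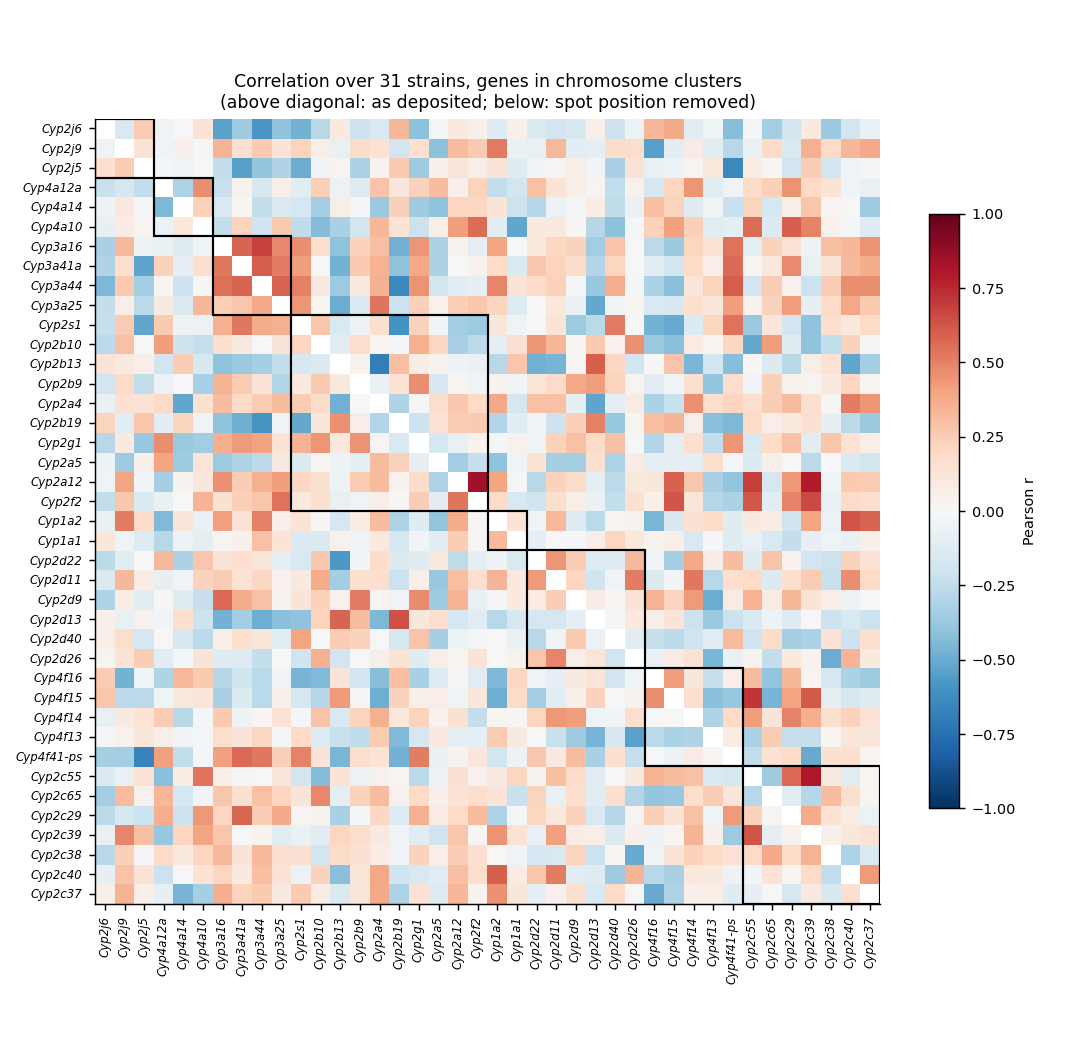
Pearson r over 31 strains between the P450 genes of chromosome clusters (outlined), with the deposited ratios above the diagonal and spot position removed below it. The darkest squares above the diagonal are Cyp2a12 with Cyp2f2 (0.843) and Cyp2c55 with Cyp2c39 (0.797), and both are paler below it.

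Cyp2a12 and Cyp2f2 had the largest r, 0.843 (rho = 0.884, n = 31, permutation p = 1e-05, the smallest that 100000 resamples can give, adjusted p = 0.000347). On the deposited ratios BXD11 was lowest and BXD33 highest in both genes. The r was 0.806 without the 2 strains farthest from the median, 0.719 in BXD33-42 and 0.845 in BXD1-32. Both probes are spotted at position 16 of the repeat, and the 48 spots there had a median pairwise r of 0.566, above that of 98.5% of positions. Cyp2a12 had an r of 0.838 and Cyp2f2 of 0.795 with the mean of the other 47 spots at that position. With position removed the pair had an r of 0.535 (adjusted p = 0.0443). BXD42 was then highest in both genes (0.520 and 0.182). Lowest were BXD11 in Cyp2a12 (-1.02) and BXD5 in Cyp2f2 (-1.82).

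Cyp2c39 is spotted at the same position, and over strains it had an r of 0.790 with Cyp2a12 and of 0.663 with Cyp2f2, although it lies on chromosome 19. These pairs were picked after their values were seen and are given as a description. With position removed they had an r of 0.277 and 0.0103. For Cyp2c39 the r with the other spots at position 16 was 0.873. In its own cluster it varied with Cyp2c55 at 0.797 (rho = 0.811, permutation p = 1e-05, adjusted p = 0.000347). That r was 0.775 without the 2 strains farthest from the median, 0.715 in BXD33-42 and 0.800 in BXD1-32. Cyp2c55 is spotted elsewhere, at position 248, and had an r of 0.835 with the other spots there. With position removed the pair stayed at 0.631 (adjusted p = 0.0208). Cyp2c55 also varied with Cyp2c29 at 0.563 (adjusted p = 0.011), which is spotted at the same position 248, and with position removed at 0.231 (adjusted p = 0.537).

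**Figure D4:**
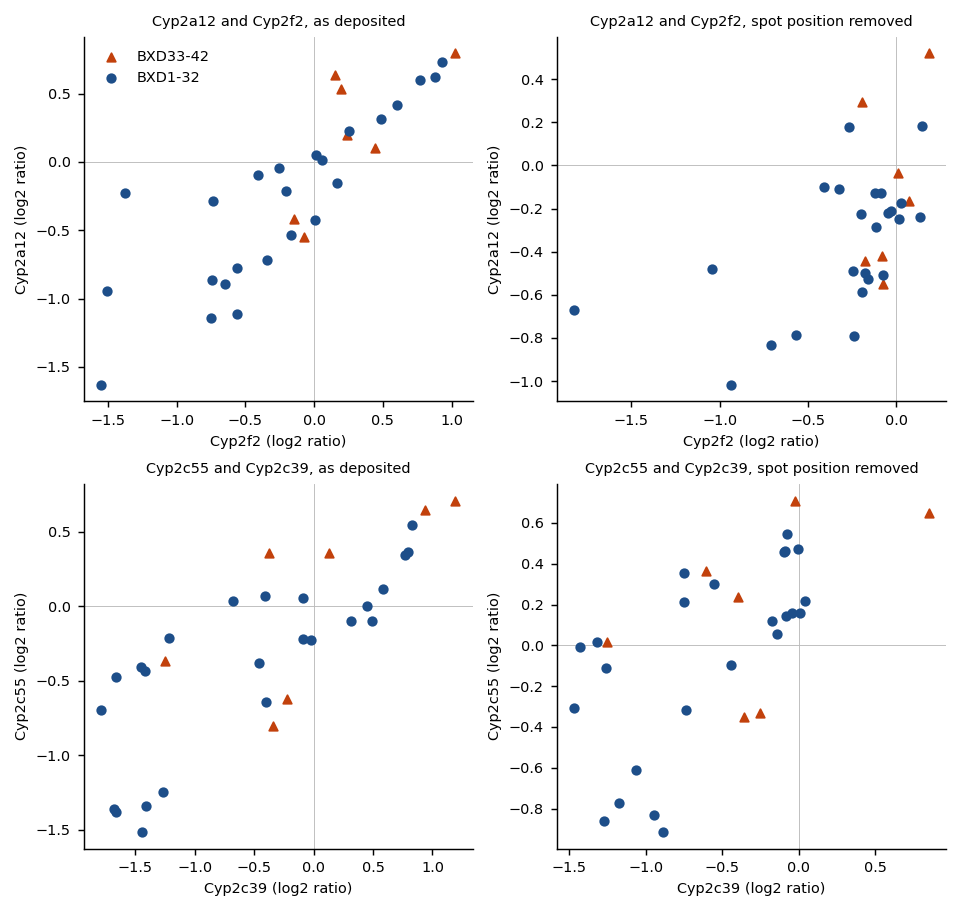
Log2 ratios of Cyp2a12 against Cyp2f2 and of Cyp2c55 against Cyp2c39 over 31 strains (triangles BXD33-42, circles BXD1-32), as deposited at the left and with spot position removed at the right. The points of the first pair scatter more widely after removal, with an r of 0.535, and those of the second pair have an r of 0.631.

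The negative pairs were both on chromosome 7. Cyp2b13 and Cyp2a4 had an r of -0.691 (rho = -0.604, permutation p = 1e-05, adjusted p = 0.000347), of -0.478 in BXD33-42 and of -0.722 in BXD1-32. BXD22 was lowest in Cyp2b13 and highest in Cyp2a4, and BXD15 the reverse. Without the 2 strains farthest from the median r was -0.547, and with position removed -0.484 (adjusted p = 0.0829). The 2 averaged probes of Cyp2b13 had an r of 0.468 with each other. With only its probe of larger spread, the pair had an r of -0.497 (adjusted p = 0.04585). Cyp2s1 and Cyp2b19 had an r of -0.596 (rho = -0.705, permutation p = 0.00035, adjusted p = 0.00711), of -0.832 in BXD33-42 and of -0.636 in BXD1-32. Without the 2 farthest strains it was -0.591, and with position removed -0.512 (adjusted p = 0.0562). Cyp2s1 had an r of 0.649 and Cyp2b19 of -0.627 with the first principal component of all genes. With that component removed the pair had an r of -0.320 and did not pass (adjusted p = 0.292).

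Within the Cyp3a cluster the r of the 6 pairs ran from 0.484 to 0.681 with a median of 0.582. Cyp3a16 and Cyp3a44 had the largest, 0.681 (rho = 0.692, permutation p = 7e-05, adjusted p = 0.00182), which was 0.649 without the 2 farthest strains, 0.830 in BXD33-42 and 0.684 in BXD1-32. Cyp3a41a and Cyp3a44 followed at 0.607 (rho = 0.618, permutation p = 0.00041, adjusted p = 0.00711), with 0.561 without the 2 farthest strains, 0.695 in BXD33-42 and 0.656 in BXD1-32. The 3 pairs among the near copies also passed with position removed, at 0.552, 0.585 and 0.525, and the 3 pairs with Cyp3a25 did not (0.237 to 0.380). The probes of these genes are at different positions (247, 17 and 245). The same 4 genes had an r of 0.62 to 0.82 with the first principal component of all genes, and with that component removed the median r in the cluster was -0.0106 and none of its pairs passed. Its part in the result was not tested.

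Alike promoters occurred at both low and high r. Cyp2b13 and Cyp2b9 promoters matched at 99.3% and the genes had an r of 0.0381 (0.1045 with position removed). Cyp2a4 and Cyp2a5, at 97.7%, had an r of 0.178 (0.313). Pairs of Cyp3a16, Cyp3a41a and Cyp3a44, at 92.4% to 93.4%, had an r of 0.579 to 0.681 (0.525 to 0.585). Among less alike promoters, Cyp2c55 and Cyp2c39 matched at 55.6% and had an r of 0.797 (0.631). The median identity was 52.9% over 79 cluster pairs and 49.9% over 824 other pairs.

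Pairs on different chromosomes are listed only as a description, since they were picked from all pairs and are not the largest in order. Cyp2u1 and Cyp39a1 had an r of 0.760 (0.557 with position removed). Cyp7a1 and Cyp2a5 ran opposite to each other at -0.657 (-0.666), as did Cyp2j9 and Cyp27b1 at -0.653 (-0.506) and Cyp2j5 and Cyp4f41-ps at -0.641 (-0.664). Other pairs of this size fell further with position removed, as did those of Cyp2c39 given above. They were Cyp4f15 and Cyp2c55 at 0.7155 (0.3185), Cyp2a12 and Cyp2c55 at 0.6903 (0.1503) and Cyp2f2 and Cyp1b1 at 0.6498 (0.1636). Cyp3a41a and Cyp39a1 at 0.6454 (0.5078) and Cyp3a44 and Cyp2b19 at -0.6421 (-0.5928) fell less.

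Each P450 gene was then set against the mean ratio of 3 lists of genes: androgen-regulated kidney genes (7 of 9 measured), proximal tubule genes (16 of 17) and fatty acid oxidation genes (12 of 15). The androgen list varied most over strains, with a median SD of 0.968 per gene, against 0.417 for the proximal tubule list, 0.492 for the oxidation list and 0.291 and 0.263 for lists of neuron and glia genes. Of 168 relations, 13 passed at an adjusted p under 0.05 over all of them (permutation of strains, 2-sided), 6 positive and 7 negative. By Spearman's rho 5 passed, all among the 13: Cyp2j5 with the proximal tubule list, Cyp7b1 with the androgen list, and Cyp3a16, Cyp3a44 and Cyp2j6 with the oxidation list. With position removed 12 passed, 8 of them among the 13, and the 5 lost were those of Cyp2d40 (-0.477 and -0.432), those of Cyp2j6 (0.417 and 0.393) and that of Cyp2j5 with the androgen list (0.465).

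The 6 positive relations were with Cyp2j5, Cyp7b1, Cyp2j6 and Cyp2e1. Cyp2j5 varied with the proximal tubule list at r = 0.724 (rho = 0.611, n = 31, permutation p = 3e-05, adjusted p = 0.00504), at 0.608 without the 2 farthest strains, 0.346 in BXD33-42 and 0.742 in BXD1-32. With position removed the r was 0.709 (adjusted p = 0.00168). Cyp7b1 varied with the androgen list at r = 0.634 (rho = 0.637, permutation p = 0.00013, adjusted p = 0.0063), at 0.536 without the 2 farthest strains, 0.795 in BXD33-42 and 0.536 in BXD1-32. The r was 0.666 with position removed (adjusted p = 0.00336). Cyp2j5 also varied with the androgen list (0.519, rho = 0.418, permutation p = 0.00286, adjusted p = 0.0435), and was -0.15 within BXD33-42. Cyp2e1 and Cyp2j6 varied with the proximal tubule list (0.546 and 0.509, adjusted p = 0.0267 and 0.0447), and Cyp2j6 with the oxidation list (0.578, adjusted p = 0.0166). Without BXD15 and BXD38, the r of Cyp2e1 with the proximal tubule list was 0.319 (adjusted p = 0.344), and those of Cyp2j6 with that list and of Cyp2j5 with the androgen list were 0.489 and 0.460 (adjusted p = 0.0877 and 0.115).

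The negative relations were with Cyp3a, Cyp2s1 and Cyp2d40. Cyp3a16 and the oxidation list had an r of -0.673 (rho = -0.688, permutation p = 6e-05, adjusted p = 0.00504), of -0.617 without the 2 farthest strains, -0.721 in BXD33-42 and -0.730 in BXD1-32. Cyp3a44 had an r of -0.627 with the same list (rho = -0.669, permutation p = 0.00015, adjusted p = 0.0063), of -0.697 without the 2 farthest strains, -0.358 in BXD33-42 and -0.725 in BXD1-32. Both also passed with position removed (-0.529 and -0.531, adjusted p = 0.0398 for each) and not with the first principal component removed (-0.406 and -0.313). Cyp3a41a ran against the androgen and proximal tubule lists (-0.592 and -0.506), as did Cyp2d40 (-0.578 and -0.568), and Cyp2s1 against the androgen list (-0.580), with adjusted p from 0.0158 to 0.0435. The relations of Cyp2d40 were -0.495 and -0.455 without BXD15 and BXD38 (adjusted p = 0.0872 and 0.119).

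**Figure D5:**
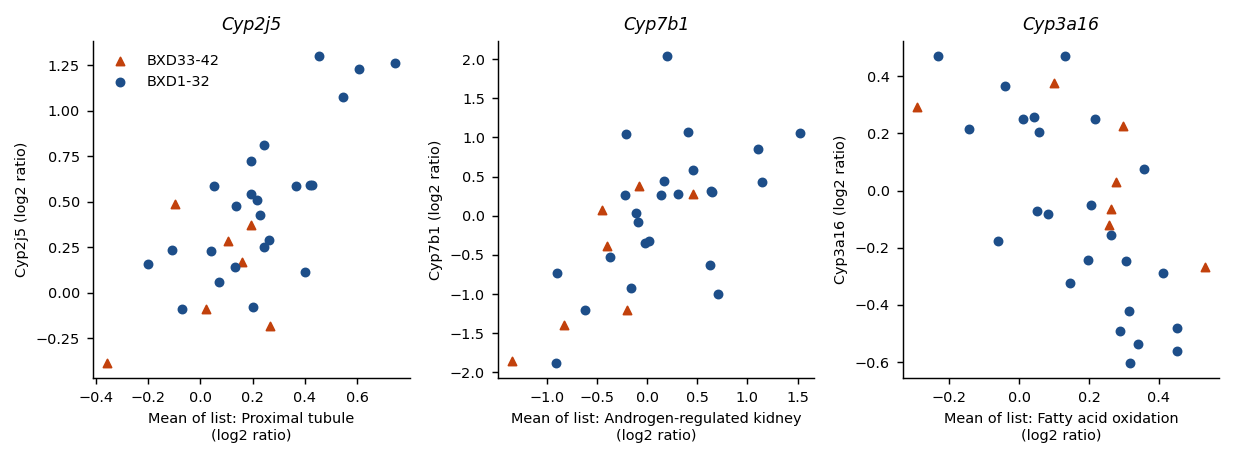
Log2 ratios of Cyp2j5 against the mean of the proximal tubule list, of Cyp7b1 against the androgen-regulated list and of Cyp3a16 against the fatty acid oxidation list over 31 strains (triangles BXD33-42, circles BXD1-32). The points climb in the first 2 plots (r = 0.724 and 0.634) and descend in the last (r = -0.673).

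Lists of other cell types were measured alongside, since a dissected sample can hold them. Of the liver list 2 of 7 genes were higher and 1 lower, of the adrenal cortex list 2 of 7 higher and none lower, of the fat list 3 of 5 higher and none lower, of the neuron list 3 of 7 higher and 2 lower, and of the glia list 1 of 5 higher and 2 lower. Of the podocyte list 2 of 4 were higher and 1 lower, and of the loop and distal tubule list 2 of 5 were higher and 1 lower. The background was 26.5% of all genes higher and 29.3% lower, and with so few genes a list nothing is read from these counts. Median mean ratios were 0.08 for liver, 0.05 for adrenal cortex and 0.20 for fat. With position removed none of the liver list was higher and 1 was lower, as Alb (0.12) and Apoa1 (0.10) did not pass. Of the adrenal list Star (0.11) did not pass either and Nr5a1 did (0.17), and of the fat list 3 were higher and Adipoq was lower (-0.40, adjusted p = 0.00222). Of the neuron list 2 were then higher and 1 lower, and of the podocyte list 1 higher and 1 lower. Their part in the P450 results was not tested.

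BXD33-42 were compared with BXD1-32 to see whether P450 levels differed between the sets of strains. No P450 gene passed by limma, 5 of 56 (8.93%) had an unadjusted p under 0.05, and of all genes 1 passed (0.00662%) and 12.9% had an unadjusted p under 0.05. Cyp39a1 had the smallest p. It ran from -0.13 in BXD33 over 1.13 to 2.35 in BXD38 among BXD33-42, and from -1.37 in BXD11 over -0.24 to 1.44 in BXD23 among BXD1-32. The sets overlapped, with means of 0.98 ± 0.815 in BXD33-42 and -0.08 ± 0.744 in BXD1-32 (SD, n = 7 and 24) and a difference of 1.06 ± 0.306 (SE, limma adjusted p = 0.155). With position removed the means were 0.25 ± 0.443 in BXD33-42 and -0.17 ± 0.459 in BXD1-32, a difference of 0.42 ± 0.188 (limma adjusted p = 0.475). Cyp4a10 ran from 0.71 to 1.90 in BXD33-42 and from -3.18 to 1.43 in BXD1-32, and differed by 0.88 ± 0.351 (limma adjusted p = 0.282), with position removed by 0.90 ± 0.316 (limma adjusted p = 0.371). All 7 strains of BXD33-42 were above 0 for this gene, but their range lay within that of BXD1-32 except for BXD34.

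Cyp2j5 averaged 0.09 ± 0.320 in BXD33-42 and 0.50 ± 0.406 in BXD1-32, a difference of -0.41 ± 0.164 (limma adjusted p = 0.285). Cyp2c29 averaged -0.10 ± 0.378 in BXD33-42 and -0.50 ± 0.436 in BXD1-32, a difference of 0.40 ± 0.177 (limma adjusted p = 0.326), which was 0.21 ± 0.160 with position removed (limma adjusted p = 0.689). Cyp3a41a averaged 0.29 ± 0.404 in BXD33-42 and -0.19 ± 0.589 in BXD1-32, a difference of 0.48 ± 0.227 (limma adjusted p = 0.363). None of these 5 differences passed after adjustment over all genes.

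The partners and regulators of P450 enzymes were measured for 26 of 29 listed genes. Of these 9 were higher and 7 lower (median mean ratio -0.01), against 26.5% and 29.3% of all genes. With position removed 10 were higher and 3 lower (0.11), against 29.6% and 25.1% of all genes. The difference from all genes was not tested, and nothing is read from these counts. The nuclear receptor Ppara, which drives Cyp4a genes, had a mean of 0.44 ± 0.0652, and the aryl hydrocarbon receptor Ahr one of 0.31 ± 0.0424. Electron donors of the list split, with cytochrome b5 Cyb5a (0.28), its reductase Cyb5r3 (0.20) and the ferredoxin Fdx1 (0.29) higher and the mitochondrial cytochrome b5 Cyb5b lower (-0.44). Cebpa (0.26), Pgrmc1 (0.25), Rarg (0.24) and the epoxide hydrolase Ephx2 (0.22) were higher too. The vitamin D receptor Vdr was the lowest at -0.58 ± 0.0946, above 0 in 1 strain. Haem oxygenase Hmox1 (-0.24), the CAR gene Nr1i3 (-0.23), Ahrr, the repressor of Ahr signalling (-0.19), the bile acid receptor Nr1h4 (-0.16) and Rara (-0.14) were lower. With position removed, Cyb5b, Nr1i3, Nr1h4, Rara and Ephx2 did not pass, and Nr0b2 (0.28, adjusted p = 0.000227) and Hnf4a (0.12, adjusted p = 0.016) were higher.

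For the 3 widest P450 genes on the deposited ratios, the genes of most similar strain pattern were sought among all 15096 (Pearson r over 31 strains, as a description). For Cyp4a10 they were Bcan (0.836), Virma (0.807), Gtpbp2 (0.796), Cpa3 (0.768) and Npr1 (0.765). Removal of position left Bcan at 0.797 and Virma at 0.817 but Gtpbp2 at 0.257. For Cyp2c39 they were Etv6 (0.929), Snf8 (0.911), Gnl2 (0.897), Hltf (0.896) and 9630015K15Rik (0.895), which after removal had an r of 0.583 to 0.782. For Cyp7b1 they were Stoml2 (0.771), Azin1 (0.725), Inmt (0.705), Fubp1 (0.704) and Grtp1 (0.697), which after removal had an r of 0.578 to 0.781.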

How the data were processed

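Two-channel spotted arrays of 31 BXD strains against C57BL/6J were analysed, 1 array per strain of RNA pooled from 3 mice. Per the submitters' processing notes the authors used R 2.0.0 and limma, and background correction, normalization steps, log base and direction are not given in the sources used here. The deposited values were taken as log2 ratios. Since their sorted values are identical in all columns, the arrays had been made alike before deposit. Intensities were not analysed here, so signal over background is unknown, and precision is limited by the number of arrays.

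Probes with 1 gene name (16874; 134 have several and 6032 none) were averaged into 15096 genes. Mean ratios against 0, and BXD33-42 against BXD1-32, were fitted over all genes with limma 3.58.1 in R 4.3.3 (lmFit, eBayes, 2-sided, Benjamini-Hochberg, threshold 0.05), after tests on simulated data. P-values rest on the spread between strains, each on its own array, so effects of strain and of array cannot be told apart. Dye and reference effects, in the absence of a swap, are likewise part of every mean over strains, and C57BL/6J has no measured spread. The labels give no slide or scan batch. Correlations over strains were tested by permutation, with 104 cluster pairs and 168 relations to lists each adjusted as a family.

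Named with lowest, median and highest strain were, by rule, the 12 highest and 8 lowest called means, the 6 largest SDs, members of clusters of at least 3 genes, the vitamin D and retinoic acid enzymes and, between the sets, the 5 smallest p-values. Cyp2r1, Cyp26b1 and Cyp26c1 of that rule were not analysed here. Members and lists were chosen with earlier results of these data known. Promoter windows came from the RefSeq table on GRCm38.p6 for 43 of 56 genes, and identities from global alignments. Alternatives changed centring, spot position, spread filter, array weights, the variance model, probe averaging, strains, the first principal component and the size threshold.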

Additional observations from a re-analysis of the deposited data

Results flagged for a closer look

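Within the 7 strains of BXD33-42, 5 of the 56 P450 genes had 1 strain whose gap to the nearest other, divided by the range of the 7, exceeded 0.568 (Dixon's 95% critical value). Chance gives about 1 in 20 groups. The share over all genes was not computed, so nothing is read from this count about P450 genes. Cyp24a1, which inactivates vitamin D, was at -1.45 in BXD38 and at -0.21 in the next strain. Cyp2c37, an arachidonic acid hydroxylase, was at -1.27 in BXD34, next to 0.06. The pseudogene Cyp4f41-ps was at -0.585 in BXD33, next to 0.08, and Cyp17a1 at -0.64 in BXD42, next to -0.05. Cyp1b1 was the only high one, at 1.33 in BXD33, next to 0.33. These are deposited ratios, and the rule was not run with position removed. After removal Cyp1b1 in BXD33 was at 0.371, next to 0.220, and Cyp17a1 in BXD42 at -0.702, next to -0.325. Cyp24a1 in BXD38 was then at -1.31, next to -0.381, and Cyp2c37 in BXD34 at -1.41, next to -0.0697. Cyp4f41-ps in BXD33 was at -0.486, next to 0.220.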

How the results depend on the processing

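Calls on mean ratios held in number under 10 of 12 alternatives, with 26 to 32 P450 genes called. Requiring a mean past 0.2 in size (treat) left 3 (1 higher, 2 lower), and BXD33-42 alone, with 7 arrays, left 5 (4 higher, 1 lower). No gene of the 28 kept its call under all 12, and leaving aside BXD33-42 alone 2 did, Cyp2d40 and Cyp2j5. Of 11 cluster pairs, 5 passed with position removed, 4 with the first principal component removed, 7 in BXD1-32 alone and 0 in BXD33-42 alone. Relations to lists numbered 13, against 5 by Spearman's rho, 6 with the component removed (3 of them among the 13) and 0 in BXD33-42 alone. In the comparison of the sets 0 genes passed under each of its alternatives, with limma throughout.

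Signs turned as follows, and the cause was not tested. With position removed they were Cyp27a1 (0.0361), Cyp24a1 (-0.0314), Cyp3a16 (0.0693), Cyp2b9 (-0.0320), Cyp1a1 (0.0922), Cyp8b1 (-0.0276), Cyp2d22 (0.0758), Cyp2d9 (-0.15), Cyp4f41-ps (0.0314), Cyp39a1 (-0.0720), Cyp1b1 (-0.0176), Cyp2c37 (-0.00639) and, among called genes, Cyp2c55 (0.00491). In BXD33-42 alone they were Cyp24a1 (-0.14), Cyp3a16 (0.0672), Cyp3a41a (0.29), Cyp2a12 (0.19), Cyp2f2 (0.26), Cyp8b1 (-0.0224), Cyp4f41-ps (0.13), the called Cyp2c55 (0.0409) and Cyp2c39 (0.00985), and the androgen list with Cyp2j5 (r = -0.148) and Cyp2s1 (r = 0.0603). In BXD1-32 alone they were Cyp27a1 (0.0162), Cyp7b1 (0.0567), Cyp2d9 (-0.0111), Cyp4f15 (-0.0143) and Cyp39a1 (-0.0755). Without BXD15 and BXD38 they were Cyp27a1 (0.00311) and Cyp7b1 (0.0182), with array weights Cyp7b1 (0.00867) and Cyp2d9 (-0.000184), and with arrays centred Cyp2d9 (-0.00549). With the first principal component removed, Cyp3a16 and Cyp3a41a had an r of -0.230, Cyp3a41a and Cyp3a44 of -0.122 and Cyp3a16 and Cyp3a25 of -0.0518. Alternatives on background correction, dim probes and slide were not run, as intensities were not analysed here. No paired analysis was possible because each strain had 1 array and strain numbers do not repeat between the sets.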
